A study of Mus musculus with 10 samples.

Results

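The comparison described here is the difference between 2 mouse melanoma lines in how their genes responded to interferon gamma (IFN-γ). It used all 10 of the 10 bulk RNA sequencing libraries of the series and 15526 genes with enough counts to be tested. The parental line was B16-F10 with its own genotype, called WT. The other line was B16-F10-OVA, B16-F10 cells carrying a lentiviral vector in which an EF1A promoter drives ovalbumin, a model antigen, together with a Neo resistance gene, called OVA. The labels do not say whether OVA is 1 clone or a pool, and they give no vector control for WT. Each line had 2 libraries of untreated control cells and 3 libraries of cells kept for 24 h in IFN-γ at 50 ng/ml. The response of a gene in a line is the log2 change from untreated to treated cells. The difference is the response in OVA minus the response in WT, so a negative value means a weaker rise or a deeper fall in OVA. The series asked whether the lines answer IFN-γ differently, and this contrast is the direct test of it.

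IFN-γ is a cytokine of activated T and NK cells. It binds the receptor chains Ifngr1 and Ifngr2, which carry the kinases Jak1 and Jak2. Signalling from the receptor induces Irf1 and other factors, and in turn antigen presentation genes, GTPases of cell-autonomous defence, chemokines and antiviral genes are switched on. Many antiviral genes also carry an interferon-stimulated response element, which type I interferon uses as well, and can have a low level of expression in cells that received no interferon. In melanoma the same pathway raises MHC class I, which shows peptides such as those of ovalbumin to CD8 T cells, and PD-L1, which restrains them.

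Of the 15526 genes, 53 passed the test of the difference (edgeR's quasi-likelihood test, Benjamini-Hochberg adjusted p under 0.05), which is 0.341% of those tested. The response was higher in OVA for 12 of them (0.0773% of tested genes) and lower for 41 (0.264%). By comparison, 44.2% of tested genes passed for the response in WT and 48.8% for the response in OVA, 2 contrasts that share no library with each other but share all of theirs with the difference. At an unadjusted p under 0.05, 1657 genes differed. Most called differences were small. A difference was sized only for the 15256 genes with more than 3 counts summed in every group, which left out 2 of the called genes. The 41 sized lower calls ran from −2.21 to −0.22 on the log2 scale with a median of −0.41, and 6 of them were at least 2-fold. The 10 sized higher calls ran from 0.26 to 1.01 with a median of 0.44, and 1 was at least 2-fold. Over all 15256 sized genes the median difference was −0.014, and 54.2% of them were below 0. The 95% interval of the difference lay within 2-fold in either direction for 11409 of the sized genes (74.8%), and for 10568 of the 10725 with at least 5 CPM (a gene's share of its library's counts, scaled with TMM factors to a common library size) in their highest group (98.5%). For the remaining genes the interval reached a 2-fold difference at this depth and number of libraries.

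**Figure D1:**
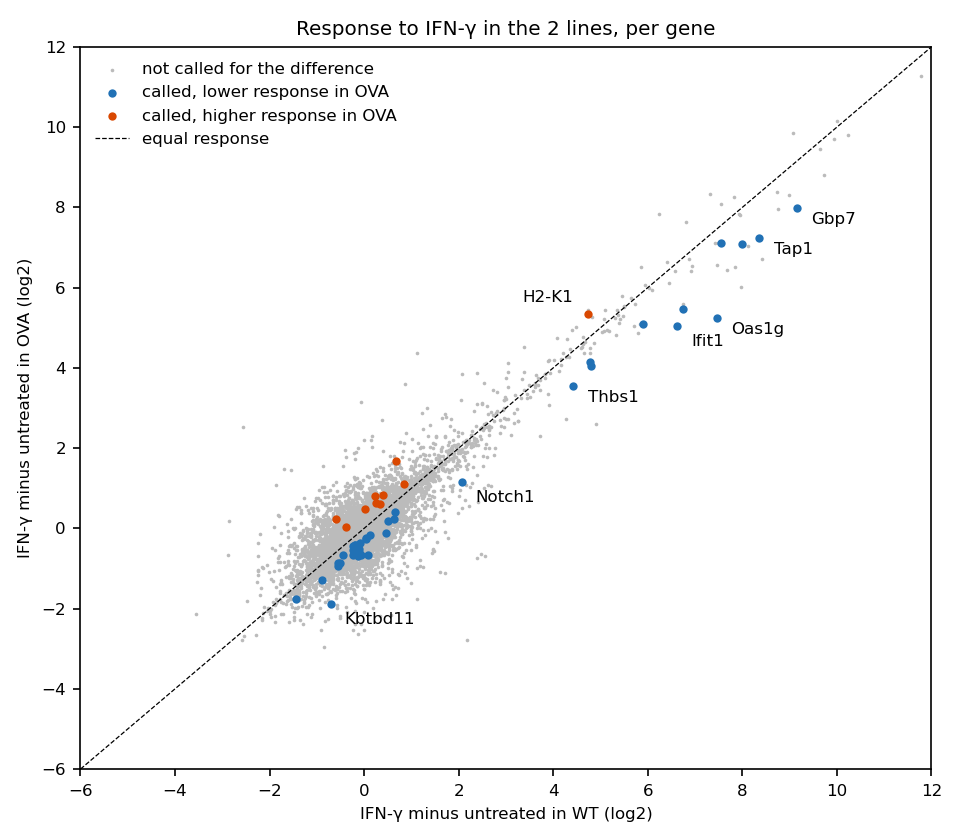
Each point is 1 sized gene, with its log2 response to IFN-γ in WT on the x axis and in OVA on the y axis, and the dashed line marks an equal response. The 41 genes called lower in OVA (blue) and the 10 called higher (orange) lie close to the line, and among the strongly induced genes Oas1g, Ifit1, Tap1 and Gbp7 sit below it and H2-K1 above it.

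The count of calls depended on single libraries. It was 21 without WT untreated replicate 1, 23 without OVA untreated replicate 1, 22 without OVA untreated replicate 2 and 107 without WT IFN-γ replicate 3, while leaving out any of the other 6 libraries gave 36 to 57. Without OVA IFN-γ replicate 2 the lower calls fell to 26. Of the 51 sized calls, 13 were called in each of the 10 fits that left out 1 library: Kbtbd11, Bnip3, Ifit1, Ccn1, Ddit3, Egr1, Neat1, H2-K1, Nr4a3, Slc16a3, Ak4, Notch1 and mt-Nd5. No called gene changed its direction in any fit. Whether the replicates came from separate cultures is not stated, so p-values measure the spread between these libraries, which may be technical.

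Libraries held 17728722 to 19642533 counts. Principal component 1 held 72.9% of the variance and parted treated from untreated libraries, and component 2 held 6.06% and parted the lines. All 7 melanocyte markers were expressed, at 23256 to 24467 CPM summed. Above 1 CPM in at least 1 library were 1 of 9 T cell markers, 1 of 8 macrophage markers, 1 of 7 epithelial markers and 4 of 8 fibroblast markers, and 2, 2, 5 and 1 of these markers had no counts in any library. The summed fibroblast markers ran from 12.9 to 13.4 CPM in the untreated libraries of both lines and from 6.91 to 8.74 CPM in the treated ones, so they moved with treatment in both lines. The summed T cell markers (1.58 to 1.95 CPM untreated, 3.20 to 4.12 treated) did too. Most of that sum was Lck (1.17 to 4.01 CPM over all libraries), and no other T cell marker exceeded 0.34 CPM. The summed macrophage markers ran from 2.17 to 3.27 CPM untreated and from 3.33 to 4.99 treated. The part of these markers in the differences was not tested. In bulk RNA, fewer cells of a kind and less RNA per cell cannot be told apart.

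The receptor and its signalling chain gave no call in the main edgeR fit. Of 28 tested genes of the interferon receptors and the JAK-STAT pathway none passed for the difference (0 of 28 against 0.341% of all tested genes). At that share few calls would be found among 28 genes, so the lack of calls says little about this list. The median of its 27 sized members was −0.050. Ifngr1, the ligand-binding chain, differed by −0.034 with a 95% interval of −0.24 to 0.18. Ifngr2, the signalling chain, differed by −0.070 (−0.23 to 0.087), Jak1 by −0.074 (−0.18 to 0.036) and Jak2 by −0.050 (−0.20 to 0.10). These intervals leave room for differences of at most 0.24 log2 units in size. Irf1, an induced transcription factor that activates class I genes, had 11.0 and 10.3 CPM in untreated WT, 684, 693 and 727 in treated WT, 10.3 and 10.4 in untreated OVA, and 638, 665 and 679 in treated OVA. Untreated lines overlapped and treated OVA was slightly below treated WT. The difference was −0.045 (−0.25 to 0.16), Irf1 having risen by 6.04 in WT and 5.99 in OVA. Socs1, a feedback inhibitor of the JAKs, had 0.607 and 0.336 CPM in untreated WT, 25.1, 25.6 and 24.3 in treated WT, 0.822 and 0.595 in untreated OVA, and 24.8, 22.9 and 22.6 in treated OVA. The lines overlapped in both conditions, and the low untreated counts left a wide interval (−0.67, −1.48 to 0.14).

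Class I antigen presentation split by gene. Of 23 tested genes, H2-K1 was called higher and Tap1 lower (0.0773% and 0.264% of all tested genes), and the median of the 19 sized genes was −0.062. With DESeq2 the list had 4 calls. H2-K1 (ENSMUSG00000061232) encodes the class I heavy chain of the H-2K locus. It had 27.9 and 25.6 CPM in untreated WT, 696, 713 and 745 in treated WT, 15.3 and 14.9 in untreated OVA, and 609, 624 and 616 in treated OVA. Every OVA library lay below every WT library of the same treatment, and the gap narrowed from −0.82 untreated to −0.22 treated. The rise was therefore larger in OVA (5.35 against 4.75, difference 0.60, SE 0.076, edgeR adjusted p = 0.00105). H2-D1, another class I heavy chain gene, had 55.4 and 49.6 CPM in untreated WT, 781, 795 and 815 in treated WT, 50.9 and 53.9 in untreated OVA, and 757, 774 and 774 in treated OVA. The untreated lines overlapped and treated OVA was slightly below treated WT. Its difference was −0.050 with a 95% interval of −0.18 to 0.080. B2m, the light chain shared by all class I molecules, differed by 0.034 (−0.065 to 0.13). H2-Q4, a nonclassical heavy chain gene, differed by 0.29 (0.11 to 0.47, edgeR adjusted p = 0.229). Genes of this family have similar sequences, and how reads that map to several of them were handled is not given in the sources used here.

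Tap1 (ENSMUSG00000037321) encodes a subunit of the pump that carries peptides into the endoplasmic reticulum for class I loading. Its level was 1.38 and 1.62 CPM in untreated WT, 501, 495 and 493 in treated WT, 3.83 and 2.76 in untreated OVA, and 512, 494 and 495 in treated OVA. The treated libraries of the lines overlapped, and only the untreated ones stood apart, higher in OVA by 1.13 log2 units. The difference of −1.12 (SE 0.19, edgeR adjusted p = 0.0156) thus rested on untreated levels under 4 CPM. It lost its call without WT untreated replicate 1 (adjusted p = 0.199), WT untreated replicate 2 (0.0735) or OVA untreated replicate 1 (0.319), and with limma-voom (0.119). Tap2, the partner subunit, differed by −0.13 (−0.77 to 0.51). The immunoproteasome genes Psmb8 and Psmb9 and the class I transactivator gene Nlrc5 had 3 counts or fewer summed in an untreated group, so their differences were not sized, and none was called. Of 14 tested class II genes none was called (0.341% of all tested genes were). The 6 class II genes not sized included the class II transactivator gene Ciita. Cd274, which encodes PD-L1, had 8.01 and 8.40 CPM in untreated WT, 210.0, 214 and 200.2 in treated WT, 9.59 and 7.41 in untreated OVA, and 210.5, 216 and 214 in treated OVA. The libraries of the lines overlapped under both conditions, and the difference was −0.013 with a 95% interval of −0.28 to 0.25.

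**Figure D2:**
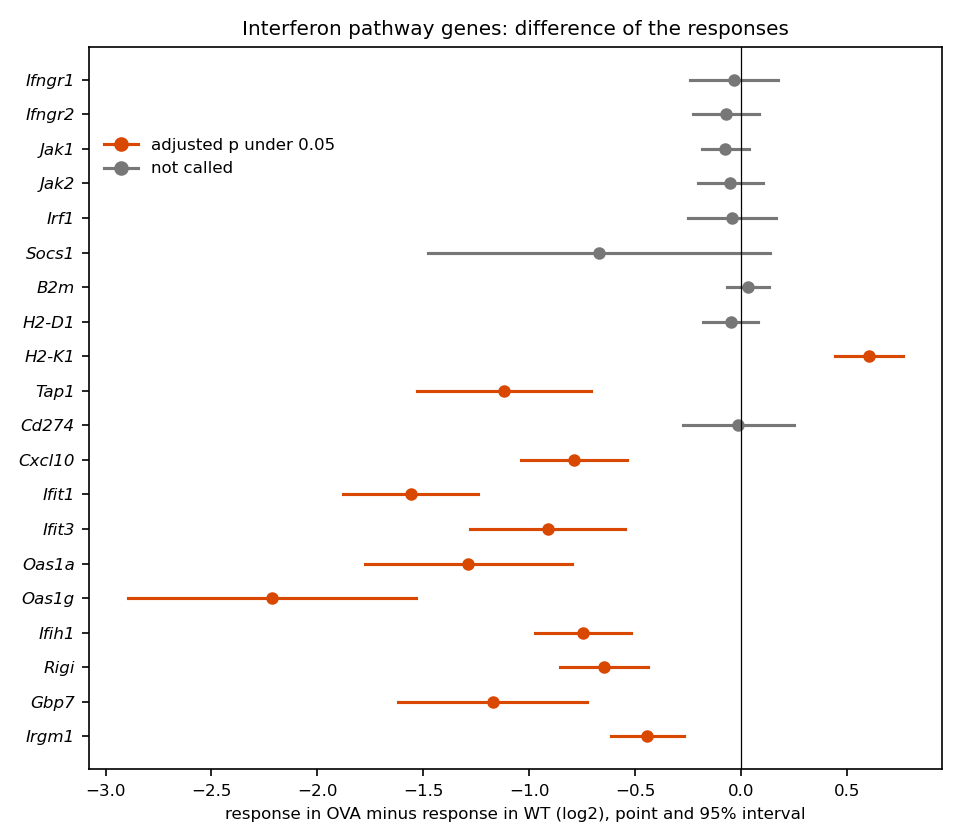
Each row is 1 gene of the interferon pathway, and the point and bar give the response in OVA minus the response in WT (log2) with its 95% interval. The receptor, kinase, Irf1, B2m, H2-D1 and Cd274 intervals cross 0, H2-K1 lies above it, and Tap1, Cxcl10 and the antiviral and GTPase genes shown lie below it, down to −2.21 for Oas1g. The antiviral and GTPase genes shown are the called members of their lists, so their place apart from 0 follows from that choice. Of the 48 tested antiviral genes 42 were not called, and of the 22 GTPases 20 were not.

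Nearly all antiviral genes rose in both lines, and 20 of the 48 tested started from a higher level in OVA. Of these 48 tested members of the list of antiviral effectors and sensors, 47 rose in each line by edgeR (24.5% of all tested genes rose and 19.7% fell in WT, and 25.9% rose and 22.9% fell in OVA). The 5 members not sized could pass the filter on low counts through their treated libraries, so their rise is not independent of the filter. For the difference, 6 of the 48 were called lower and none higher (against 0.264% and 0.0773% of tested genes). The difference was below 0 for 35 of the 43 sized members, and its median was −0.21. Before treatment, 20 of the 48 were higher in OVA and none lower (2.98% and 2.55% of all tested genes, 5.53% in either direction), and with IFN-γ 33 were higher and none lower (6.36% and 7.99%, together 14.4%). The median gap of the sized members was 0.37 untreated and 0.20 treated. These gaps share libraries with the difference and so are not independent of it. In the alternatives that kept all libraries the list had 3 to 8 calls for the difference. The 6 called members were Ifit1, Oas1g, Ifih1, Rigi, Oas1a and Ifit3, and 1 member was called without WT untreated replicate 1. The list had 4 calls with limma-voom and without WT untreated replicate 2 or either OVA untreated library.

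Ifit1 (ENSMUSG00000034459) encodes a protein that binds viral RNA lacking the cap methylation of host messages. It had 1.82 and 2.86 CPM in untreated WT, 227, 227 and 234 in treated WT, 9.70 and 9.79 in untreated OVA, and 321, 320.2 and 331 in treated OVA. All OVA libraries lay above all WT libraries of the same treatment. The gap was 2.06 untreated and 0.50 treated, and the rise was 6.61 in WT and 5.05 in OVA. The difference of −1.56 (SE 0.15, edgeR adjusted p = 6.75e-05) was called in every fit that left out a library, at adjusted p of 5.78e-05 to 0.00301. Ifit3, a gene of the same family as Ifit1, had 2.60 and 2.80 CPM in untreated WT, 673, 685 and 713 in treated WT, 5.92 and 6.49 in untreated OVA, and 793, 846 and 887 in treated OVA. Both conditions again stood higher in OVA, and the difference was −0.91 (adjusted p = 0.0267). Its call was lost without any 1 of the 4 untreated libraries (adjusted p = 0.100 to 0.270) and with limma-voom (0.234). Ifit2, of the same family, was not called and had a positive value, 0.19 (0.087 to 0.29, edgeR adjusted p = 0.133).

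Oas1g and Oas1a encode oligoadenylate synthetases, which sense double-stranded RNA and activate the nuclease RNase L. Oas1g (ENSMUSG00000066861) had 0.221 and 0.280 CPM in untreated WT, 44.8, 45.0 and 46.6 in treated WT, 1.81 and 1.95 in untreated OVA, and 70.7, 72.9 and 72.0 in treated OVA. This was the largest sized difference of all called genes, at −2.21 (SE 0.32, edgeR adjusted p = 0.00290), and it rested on untreated WT levels under 0.3 CPM. Without WT untreated replicate 1 it lost its call (adjusted p = 0.0793). Oas1a (ENSMUSG00000052776) had 0.939 and 0.840 CPM in untreated WT, 95.2, 95.3 and 99.4 in treated WT, 3.67 and 3.25 in untreated OVA, and 149.5, 149 and 159.6 in treated OVA. Both genes were higher in every OVA library than in every WT library of the same treatment. The Oas1a difference of −1.29 (adjusted p = 0.0189) was lost without any 1 of the 4 untreated libraries (adjusted p = 0.0531 to 0.202) and with limma-voom (0.134). The Oas1 genes lie in a cluster of near-identical copies, so reads may be split between them. The cytosolic RNA sensors Ifih1 (MDA5) and Rigi (RIG-I) were expressed at higher untreated levels. Ifih1 had 5.63 and 6.16 CPM in untreated WT, 168, 162 and 165 in treated WT, 10.7 and 11.3 in untreated OVA, and 182, 189 and 178 in treated OVA. Rigi had 6.68 and 7.34 CPM in untreated WT, 195, 191 and 193 in treated WT, 13.6 and 13.6 in untreated OVA, and 231, 240.0 and 246 in treated OVA. In both genes every OVA library was above every WT library of the same treatment. The differences were −0.75 and −0.65 (edgeR adjusted p = 0.00290 and 0.00431), and both were lost only without WT untreated replicate 1 among these fits (0.0672 and 0.0986).

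Upstream sequence is shown for 3 of these genes because their windows hold a core of the interferon-stimulated response element. RefSeq promoter windows (GRCm38.p6, another build than that of the counts) covered 38 of the 50 list members. This core, GAAA followed by any 2 bases and GAAA again, on either strand, was searched in the 250 bases before each start site, with overlapping matches merged. It was in 14 of 46 windows of the antiviral list (30.4%), in 11 of 13 windows of the GTPase list (84.6%), and in 2.98% of all 32851 windows. The 150 bases before the start follow for Ifit1 at chr19:34640739-34640888 (plus strand), Oas1a at chr5:120907526-120907675 (minus strand) and Oas1g at chr5:120887614-120887763 (minus strand), read 5′ to 3′ on the gene's strand. Capitals mark the matches.
Ifit1: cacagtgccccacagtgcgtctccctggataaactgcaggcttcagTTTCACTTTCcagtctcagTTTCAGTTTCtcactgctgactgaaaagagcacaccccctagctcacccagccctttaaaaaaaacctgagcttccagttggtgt
Oas1a: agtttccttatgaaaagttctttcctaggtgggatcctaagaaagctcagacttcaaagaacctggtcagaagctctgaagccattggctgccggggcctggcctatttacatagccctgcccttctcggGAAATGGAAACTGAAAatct
Oas1g: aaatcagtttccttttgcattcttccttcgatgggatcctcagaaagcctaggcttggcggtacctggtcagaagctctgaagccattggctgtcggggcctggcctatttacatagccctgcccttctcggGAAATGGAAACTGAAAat
Ifit1 held 2 separate matches on the reverse strand, and Oas1a and Oas1g held the same capital stretch close to the start. The window of Ifit3 held 2 matches and that of Ifih1 none. A match describes the letters only and does not show that a factor bound there.

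The interferon-inducible GTPases, which attack the vacuoles of intracellular pathogens, rose in both lines for all 22 tested members (24.5% of all tested genes rose in WT and 25.9% in OVA). In 12 of them a group held 3 counts or fewer, so 10 were sized. These 12 could pass the filter on low counts through their treated libraries. The share of members that rose is therefore not independent of the filter. All 10 differences were below 0 (median −0.47, against −0.014 for all sized genes), and 2 of the 22 were called (0.264% of all tested genes were called lower). The median gap of the 10 was 0.69 untreated and 0.13 treated. Gbp7 (ENSMUSG00000040253) had 1.71 and 1.01 CPM in untreated WT, 779, 795 and 780.1 in treated WT, 3.12 and 2.60 in untreated OVA, and 725, 713 and 746 in treated OVA. Untreated OVA was above untreated WT, and treated OVA was slightly below treated WT, with no overlap in either condition. The difference was −1.17 (SE 0.21, edgeR adjusted p = 0.0189). Its call was lost without WT untreated replicate 2 (0.252), OVA untreated replicate 1 (0.240) or OVA untreated replicate 2 (0.0508), and with limma-voom (0.120). Irgm1 (ENSMUSG00000046879), a regulator of the other GTPases, had 10.5 and 9.41 CPM in untreated WT, 1887, 1848 and 1906 in treated WT, 15.1 and 14.4 in untreated OVA, and 1995, 2032 and 2108 in treated OVA. It stood higher in OVA under both conditions, and its difference of −0.44 (adjusted p = 0.0231) was lost in 5 of the 10 fits without 1 library (up to 0.252), namely without any 1 of the 4 untreated libraries or OVA IFN-γ replicate 2, and with limma-voom (0.172). The list thus had no call with limma-voom or without WT untreated replicate 2 or either OVA untreated library, and 1 without WT untreated replicate 1 or OVA IFN-γ replicate 2.

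Cxcl10 (ENSMUSG00000034855), the chemokine that draws CXCR3-bearing T cells, was the only call, a lower one, among 12 tested chemokine and cytokine genes (0.264% of all tested genes). It had 5.13 and 4.54 CPM in untreated WT, 283, 284 and 295 in treated WT, 8.76 and 9.36 in untreated OVA, and 302, 312 and 319.9 in treated OVA. OVA was higher in every library of both conditions, with a gap of 0.90 untreated and 0.12 treated. The difference of −0.79 (SE 0.12, edgeR adjusted p = 0.00398) was lost without WT untreated replicate 2 (0.0752) or OVA untreated replicate 2 (0.0574). Of the 41 sized lower calls, the untreated gap between the lines was larger in size than the treated one in 21, and in 6 of the 10 higher ones, against 48.8% of all sized genes.

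**Figure D3:**
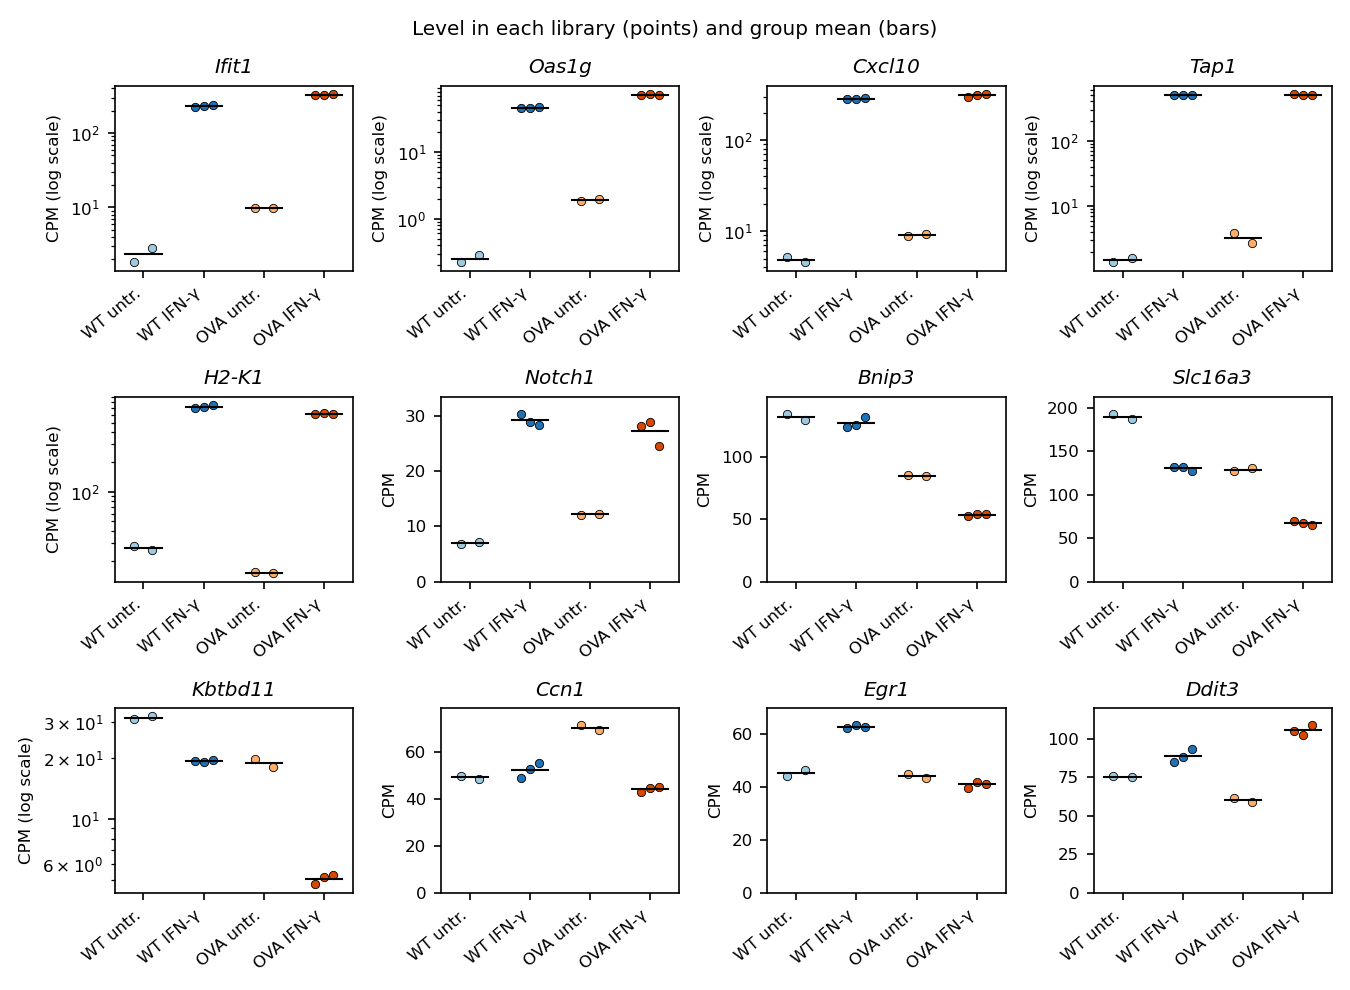
Each panel gives 1 gene's CPM in every library (points) and the group mean (bars), for untreated and IFN-γ treated WT (blue) and OVA (orange). The y axis is logarithmic for Ifit1, Oas1g, Cxcl10, Tap1, H2-K1 and Kbtbd11 and starts at 0 for the others. In the interferon panels the lines differ most before treatment, while in Bnip3, Slc16a3, Kbtbd11 and Egr1 they differ most with IFN-γ.

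At the called genes of the hypoxia response the lines were further apart with IFN-γ than before it. The treated gap is the untreated gap plus the difference. At genes lower in OVA before treatment and called lower, the wider gap therefore follows from the call. Genes of the hypoxia list are targets of the HIF factors, which prolyl hydroxylases keep low in oxygen, and several serve a switch to glycolysis. Of 25 tested hypoxia genes, 4 were called lower for the difference and none higher (0.264% and 0.0773% of all tested genes). The difference was below 0 in 20 of 25, with a median of −0.14. Before treatment 17 of the 25 were lower in OVA (2.55% of all tested genes) and with IFN-γ 20 were (7.99%), and none was higher in either condition (2.98% and 6.36%). The median gap went from −0.26 to −0.43. Bnip3 (ENSMUSG00000078566), which marks mitochondria for removal, had 135 and 129 CPM in untreated WT, 124, 125 and 132 in treated WT, 85.3 and 84.4 in untreated OVA, and 52.6, 54.3 and 54.4 in treated OVA. The WT libraries overlapped between the conditions, and the OVA libraries fell. The response was −0.056 in WT (edgeR adjusted p = 0.247) and −0.66 in OVA, and the difference of −0.60 (SE 0.057, adjusted p = 6.75e-05) was called in all fits that left out a library (at adjusted p of 5.78e-05 to 0.00165).

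The other 3 called hypoxia genes fell in both lines and further in OVA. P4ha2, a collagen prolyl hydroxylase, had 62.3 and 60.9 CPM in untreated WT, 44.3, 43.1 and 42.9 in treated WT, 51.3 and 51.2 in untreated OVA, and 27.3, 27.6 and 29.4 in treated OVA. Egln1, the oxygen-sensing HIF prolyl hydroxylase, had 114 and 113 CPM in untreated WT, 78.6, 76.0 and 79.6 in treated WT, 93.9 and 95.7 in untreated OVA, and 53.8, 52.9 and 49.4 in treated OVA. Pdk1, which keeps pyruvate out of the mitochondrion, had 96.0 and 93.0 CPM in untreated WT, 79.1, 79.7 and 80.6 in treated WT, 80.4 and 78.1 in untreated OVA, and 53.1, 54.6 and 55.8 in treated OVA. In each of these genes every OVA library was below every WT library of the same treatment. The differences were −0.36, −0.32 and −0.30 (edgeR adjusted p = 0.0231, 0.0220 and 0.0267). Those calls were fragile. P4ha2 was called in 2 of the 10 fits without 1 library, Egln1 in 4 and Pdk1 in 3, with adjusted p up to 0.145, 0.130 and 0.226. The count of 4 called hypoxia genes became 1 without any single untreated library or without OVA IFN-γ replicate 2, and 2 without OVA IFN-γ replicate 1 or without either of WT IFN-γ replicates 1 and 2. At most, the hypoxia count was 6 in a fit without 1 library and 5 in the alternatives that kept all libraries. Vegfa, the vessel growth factor gene, differed by −0.037 (−0.16 to 0.085), and Ndrg1, a gene strongly induced by hypoxia, by 0.10 (−0.061 to 0.26). Their untreated gaps were −0.39 and −0.77. Ak4 (ENSMUSG00000028527), a mitochondrial adenylate kinase outside the list, was chosen for naming after its values were seen. It had 56.6 and 54.0 CPM in untreated WT, 49.2, 52.5 and 49.3 in treated WT, 48.3 and 46.9 in untreated OVA, and 29.4, 29.0 and 30.8 in treated OVA. Both lines fell, and OVA further, by a difference of −0.54 (adjusted p = 0.00130, at most 0.0216 in fits without 1 library).

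In glycolysis and lactate export, of 21 tested genes, 4 were called lower for the difference and none higher (0.264% and 0.0773% of all tested genes), 17 of the 21 differences were below 0, and their median was −0.078. In each condition 17 of the 21 genes were lower in OVA and none higher, against 2.55% lower and 2.98% higher of all tested genes untreated and 7.99% and 6.36% treated. Slc16a3 (ENSMUSG00000025161), the transporter that exports lactate from glycolytic cells, had 193 and 186 CPM in untreated WT, 131, 132 and 127 in treated WT, 127 and 130.1 in untreated OVA, and 69.2, 67.3 and 65.7 in treated OVA. Treated WT and untreated OVA were at about the same level, and treated OVA was below all other libraries. The response was −0.54 in WT and −0.93 in OVA, a difference of −0.39 (SE 0.051, edgeR adjusted p = 0.00130) that was called in all fits without 1 library (at adjusted p of 8.21e-04 to 0.0204). Hk2 (ENSMUSG00000000628), which phosphorylates glucose in the first step, had 354 and 363 CPM in untreated WT, 532, 502 and 492 in treated WT, 281 and 271 in untreated OVA, and 317, 308 and 313 in treated OVA. It rose in both lines, by 0.50 in WT and 0.18 in OVA, and the difference of −0.33 (adjusted p = 0.00431) was lost without WT untreated replicate 1 (0.0602) or OVA untreated replicate 1 (0.0644). Eno1, the enolase gene, and Pfkl, a phosphofructokinase gene, fell in both lines and further in OVA. Their differences were −0.22 and −0.22 (adjusted p = 0.0140 and 0.0275). Eno1 lost its call without WT untreated replicate 2 (0.117), OVA untreated replicate 1 (0.0721) or OVA untreated replicate 2 (0.0989), and Pfkl in 7 of the 10 fits without 1 library (up to 0.212), those lacking any 1 of the 4 untreated libraries, replicate 1 or 2 of treated OVA, or replicate 2 of treated WT. The list's count of 4 became 2 without either WT untreated library or OVA untreated replicate 2 and 1 without OVA untreated replicate 1. Ldha, which makes lactate, was close to the threshold (−0.18, −0.26 to −0.10, edgeR adjusted p = 0.0520). Gys1, a glycogen synthase gene named after its values were seen, differed by −0.29 (adjusted p = 0.0358) and was called in 2 of those 10 fits, without replicate 3 of WT IFN-γ or of OVA IFN-γ, and at up to 0.293 in the others.

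Upstream sequence is shown for 3 called genes of the hypoxia and glycolysis lists because a letter core of the hypoxia response element recurred in them. ACGTG, searched on both strands of the 250 bases before the start, was in 17 of 29 windows of the hypoxia list (58.6%) and 12 of 31 windows of the glycolysis list (38.7%). It was in 21.8% of the windows of tested genes and 16.6% of all 32851 windows. Hypoxia genes were chosen for the list as HIF targets, so this share describes the list. The 150 bases before the start follow for Bnip3 at chr7:138909507-138909656 (minus strand), P4ha2 at chr11:54100774-54100923 (plus strand) and Slc16a3 at chr11:120948917-120949066 (plus strand), all GRCm38.p6 from RefSeq and read 5′ to 3′ on the gene's strand. Capitals mark the matches, merged where they overlap on the 2 strands.
Bnip3: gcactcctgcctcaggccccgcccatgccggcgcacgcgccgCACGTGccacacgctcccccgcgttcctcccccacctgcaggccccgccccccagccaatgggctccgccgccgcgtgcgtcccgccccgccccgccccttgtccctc
P4ha2: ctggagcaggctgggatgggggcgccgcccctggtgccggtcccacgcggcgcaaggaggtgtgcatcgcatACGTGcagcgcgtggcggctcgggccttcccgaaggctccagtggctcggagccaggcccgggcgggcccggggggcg
Slc16a3: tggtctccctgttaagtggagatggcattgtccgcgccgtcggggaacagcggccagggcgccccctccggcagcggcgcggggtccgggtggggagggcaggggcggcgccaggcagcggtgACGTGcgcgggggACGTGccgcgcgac
Bnip3 and P4ha2 held 1 match each and Slc16a3 held 2 within the last bases before its start. No match was found by these letters in the windows of Pdk1, Eno1 or Pfkl, which says nothing about the factor. Over all genes called lower, 9 of 39 windows held the core (23.1%), a share near that of tested genes.

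Mitochondrially encoded genes, most of them respiratory chain subunits, had mostly negative differences. Of 12 tested genes, 5 were higher in OVA before treatment and none lower (against 2.98% and 2.55% of tested genes), and with IFN-γ none was higher and 4 were lower (6.36% and 7.99%). For the difference, 2 were called lower (0.264% of tested genes), 11 of the 12 were below 0, and the median was −0.22. mt-Nd5, a complex I subunit, had 2186 and 2299 CPM in untreated WT, 2117, 2120.3 and 1871 in treated WT, 2553 and 2590.0 in untreated OVA, and 1709, 1793 and 1709 in treated OVA. Untreated OVA was highest and treated OVA lowest, without overlap. The response was −0.14 in WT and −0.57 in OVA, and the difference of −0.43 (SE 0.062, edgeR adjusted p = 0.00312) was called in all fits without 1 library (at adjusted p of 4.02e-05 to 0.0462). mt-Nd6, the neighbouring gene on the opposite strand, differed by −0.41 (adjusted p = 0.0140), a call lost without WT untreated replicate 1 (0.0990), OVA untreated replicate 1 (0.0811) or OVA untreated replicate 2 (0.0868). The libraries are not described as stranded, so reads of these 2 genes may not be told apart where they overlap. The list's count was 1 without WT untreated replicate 1 or either OVA untreated library, 4 without WT IFN-γ replicate 1, and 5 without WT IFN-γ replicate 3. It was 4 with limma-voom, 5 with DESeq2 and 9 with no filter on low counts. The 34 tested nuclear genes of oxidative phosphorylation, which encode the other subunits, gave no call (0.341% of all tested genes were called). Their median difference was 0.050.

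The share of all counts from these genes was 2.98% and 3.03% in untreated WT, 2.88% to 2.94% in treated WT, 3.29% and 3.38% in untreated OVA and 2.70% to 2.89% in treated OVA. It was highest in untreated OVA, and its part in the single genes' differences was not tested. mt-Atp6, an ATP synthase subunit gene, had the largest negative value of the list without passing (−0.46, −0.66 to −0.26, edgeR adjusted p = 0.0509). Its nuclear pseudogene copy Atp6-ps was called in the opposite direction, with 1039 and 1152 CPM in untreated WT, 843, 682 and 654 in treated WT, 958 and 989 in untreated OVA, and 1234, 1217 and 973 in treated OVA, a difference of 0.82 (adjusted p = 0.00953). The call was lost without WT untreated replicate 2 (0.0714), OVA untreated replicate 1 (0.0834) or OVA untreated replicate 2 (0.0531). Reads of near-identical copies can be split between them, and the handling of such reads is not given in the sources used here. The 2 entries summed to 3710 ± 10.8 CPM in untreated WT (SD, n = 2), 3649 ± 185 in treated WT (n = 3), 4165 ± 114 in untreated OVA (n = 2) and 3737 ± 172 in treated OVA (n = 3). On these sums the difference of the group means was −0.13 log2 units, a value with no test.

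The integrated stress response was the only list with more than 1 gene called higher. In this pathway stalled translation start raises the factor ATF4, which switches on Ddit3 and amino acid genes. Of 24 tested genes 3 were called higher and none lower (0.0773% and 0.264% of tested genes), 20 of 24 were above 0, and the median was 0.14. Ddit3 (ENSMUSG00000025408), the transcription factor CHOP, had 75.6 and 75.2 CPM in untreated WT, 85.2, 88.2 and 93.1 in treated WT, 61.3 and 59.2 in untreated OVA, and 105, 102 and 109 in treated OVA. Untreated OVA was below untreated WT and treated OVA above treated WT, without overlap. Its rise was 0.24 in WT and 0.81 in OVA, a difference of 0.57 (SE 0.064, edgeR adjusted p = 3.72e-04), called in all fits without 1 library (at adjusted p of 5.78e-05 to 0.00812). Chac1, which breaks down glutathione, had 54.1 and 49.6 CPM in untreated WT, 41.7, 39.1 and 38.9 in treated WT, 49.0 and 49.7 in untreated OVA, and 49.7, 50.2 and 50.6 in treated OVA. It fell in WT and did not pass in OVA (adjusted p = 0.737). Trib3, a pseudokinase induced by CHOP, had 67.1 and 61.7 CPM in untreated WT, 78.7, 74.95 and 76.5 in treated WT, 48.1 and 49.3 in untreated OVA, and 78.3, 72.5 and 75.4 in treated OVA. It started lower in OVA and the treated lines overlapped. The differences were 0.40 and 0.38 (adjusted p = 0.0184 and 0.0218). Chac1 was lost without WT untreated replicate 1, WT IFN-γ replicate 2 or either OVA untreated library (0.0541 to 0.163), and Trib3 without these or OVA IFN-γ replicate 1 (up to 0.193), so that 1 call of the 3 remained without each of the first 4 and 2 without the last. Atf4 itself differed by 0.026 (−0.084 to 0.14). The 21 tested ER chaperone and unfolded protein genes gave no call in the main edgeR fit (0.341% of all tested genes were called) and a median of −0.084. The chaperone gene Pdia3 was called with DESeq2 (0.0317) and with the replicate block.

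Among immediate early genes, which growth signals switch on within minutes, Egr1 was the only one of 25 called, as lower (0.264% of all tested genes). The count was 2 without WT untreated replicate 2, 3 without WT IFN-γ replicate 3, and 2 or 3 with a stricter or no filter on low counts. Egr1 (ENSMUSG00000038418), a zinc finger transcription factor, had 44.2 and 46.4 CPM in untreated WT, 62.4, 63.5 and 62.6 in treated WT, 45.0 and 43.3 in untreated OVA, and 39.7, 42.0 and 41.2 in treated OVA. The untreated lines overlapped, WT rose by 0.47, and OVA did not pass (−0.11, edgeR adjusted p = 0.0780). Treated OVA was below all other libraries. The difference was −0.58 (SE 0.066, adjusted p = 3.91e-04), called in all fits without 1 library (at adjusted p of 5.47e-04 to 0.00974). Nr4a3 (ENSMUSG00000028341), an orphan nuclear receptor gene outside the list, had 128 and 122 CPM in untreated WT, 129, 129.5 and 122 in treated WT, 80.1 and 81.8 in untreated OVA, and 117, 113 and 109 in treated OVA. The WT libraries overlapped between conditions, whereas OVA rose by 0.48 from a lower start. Its difference was 0.46 (SE 0.058, adjusted p = 0.00105), also called in all those fits (at adjusted p of 7.35e-04 to 0.0216). Its relative Nr4a1 differed by −0.010 (−0.17 to 0.15).

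Targets of YAP and TEAD, the factors that sense cell contact and stretch, gave 2 calls of 14 tested, both lower (0.264% of all tested genes), and a median of −0.14. Ccn1 (ENSMUSG00000028195), a matricellular protein gene, had 49.9 and 48.6 CPM in untreated WT, 48.8, 52.8 and 55.6 in treated WT, 71.8 and 69.3 in untreated OVA, and 42.9, 44.9 and 45.1 in treated OVA. It was higher in untreated OVA than in WT and lower in treated OVA than in treated WT, with no overlap. WT did not pass (0.089, edgeR adjusted p = 0.196) while OVA fell by 0.67. The difference was −0.76 (SE 0.075, adjusted p = 7.69e-05), called in all fits without 1 library (at adjusted p of 5.78e-05 to 0.00216). Thbs1 (ENSMUSG00000040152), an antiangiogenic matrix protein gene, had 5.02 and 6.39 CPM in untreated WT, 126, 124 and 118 in treated WT, 7.89 and 8.17 in untreated OVA, and 95.5, 95.1 and 92.8 in treated OVA. The same exchange of order was seen on top of a strong rise in both lines. Its difference of −0.87 (adjusted p = 0.00338) was lost without WT untreated replicate 1 (0.0672) or OVA untreated replicate 2 (0.0508), and 1 YAP-TEAD call then remained. Ccn2, a close relative of Ccn1, differed by −0.30 (−0.68 to 0.089). Notch1 (ENSMUSG00000026923), the membrane receptor, was the only call, a lower one, of 19 tested Notch pathway genes (0.264% of all tested genes). The median of that list was −0.029, with 11 differences below 0 and 8 above. Notch1 had 6.79 and 7.17 CPM in untreated WT, 30.3, 28.9 and 28.3 in treated WT, 12.1 and 12.3 in untreated OVA, and 28.2, 28.8 and 24.5 in treated OVA. The gap was 0.80 untreated and −0.10 with IFN-γ, where the lines overlapped, and the difference was −0.90 (SE 0.13, adjusted p = 0.00290, at most 0.0451 in fits without 1 library).

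Mitotic genes had small, mostly negative differences. Of 26 tested genes of mitosis and G2/M, 25 had a difference below 0, with a median of −0.18 and a range of −0.29 to 0.039. Before treatment 5 of the 26 were higher in OVA and none lower (2.98% and 2.55% of tested genes), and with IFN-γ none was higher and 12 were lower (6.36% and 7.99%). The difference was called for 3, all lower (0.264% of tested genes): Hmmr, a spindle-associated hyaluronan receptor gene, Plk1, a mitotic kinase gene, and Ccna2, the cyclin A gene. Plk1 had 112 and 106 CPM in untreated WT, 113, 111 and 110.0 in treated WT, 128 and 123 in untreated OVA, and 105, 104 and 109.9 in treated OVA. WT overlapped between conditions and OVA fell by 0.24. The differences were −0.28, −0.27 and −0.22 (edgeR adjusted p = 0.0247, 0.0394 and 0.0394). These calls depended on single libraries. No gene of the list was called without any 1 of the 4 untreated libraries, without OVA IFN-γ replicate 2, or in the fit lacking WT IFN-γ replicate 1 (edgeR), 1 was in the fit lacking OVA IFN-γ replicate 1 and in that lacking WT IFN-γ replicate 2, and 6 were without WT IFN-γ replicate 3. The gene called without OVA IFN-γ replicate 1 was another member, as Hmmr, Plk1 and Ccna2 were all lost there (edgeR adjusted p = 0.0602 to 0.0989). The list's count was 6 with DESeq2 and 8 with no filter. Ccna2 was also lost with another scaling (DESeq2-type size factors, 0.0504). Prr11 and Racgap1, cell division genes outside the list and named after their values were seen, differed by −0.26 and −0.26 (adjusted p = 0.0478 and 0.0200). Prr11 was called only in the fits lacking replicate 3 of either treated group (up to 0.261 in the others), and was lost with DESeq2-type size factors (0.0594) and a stricter filter (0.0556). Racgap1 was lost without WT untreated replicate 2, either OVA untreated library, or OVA IFN-γ replicate 1 or 2 (0.0514 to 0.174). Of the genes of DNA replication and G1/S, 21 of 30 were above 0 (median 0.048). None was called in the edgeR fit (0.341% of all tested genes were), though the kinase gene Cdk2 was with DESeq2 (0.0249).

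Some of the clearest calls stood in no list. Kbtbd11 (ENSMUSG00000055675), a BTB and kelch domain protein gene, had 30.9 and 32.0 CPM in untreated WT, 19.2, 19.1 and 19.4 in treated WT, 19.8 and 18.01 in untreated OVA, and 4.76, 5.17 and 5.30 in treated OVA. It was lower in OVA before treatment, fell in both lines, and fell further in OVA. The response was −0.71 in WT and −1.89 in OVA. Its difference of −1.19 (SE 0.11, edgeR adjusted p = 6.75e-05) had the smallest p of all genes and was called in all fits without 1 library (at adjusted p of 5.78e-05 to 0.00165). Neat1 (ENSMUSG00000092274), the noncoding RNA that builds paraspeckles, had 148 and 151 CPM in untreated WT, 192, 205 and 195 in treated WT, 97.9 and 98.8 in untreated OVA, and 178, 171 and 174 in treated OVA. OVA was lower under both conditions, and the gap narrowed from −0.60 to −0.18. Its difference was 0.43 (SE 0.051, adjusted p = 5.98e-04, at most 0.0135 without 1 library). Txnip, an inhibitor of thioredoxin and of glucose uptake, and Gabarapl1, an autophagy gene, rose in both lines and more in OVA, by 0.26 and 0.26 (adjusted p = 0.0274 and 0.0424). Of the 10 fits without 1 library, Gabarapl1 was called in 2, those lacking replicate 3 of either treated group (up to 0.241 in the others), and Txnip in these and without WT untreated replicate 2 (up to 0.249). Gm42863 had 3.81 and 4.37 CPM in untreated WT, 6.44, 6.85 and 6.33 in treated WT, 3.07 and 3.19 in untreated OVA, and 10.4, 11.0 and 8.81 in treated OVA. It rose in both lines, with a difference of 1.01 (adjusted p = 0.0411), called in the same 2 fits as Gabarapl1 (up to 0.227 in the others) and lost with limma-voom (0.0960).

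The called genes not described so far were named only because they passed. They differed by −0.22 to −0.46 log2 units, all lower in OVA: Vgll3, Hipk2, Gm40652, Tbl2, Mcc, Septin11, Hmcn1, Eng and the entry ENSMUSG00000138098, which has no symbol. Vgll3, a cofactor of TEAD proteins, had 234 and 239 CPM in untreated WT, 240.0, 250.1 and 235 in treated WT, 265 and 272 in untreated OVA, and 230.1, 223 and 218 in treated OVA. The WT libraries overlapped between conditions, OVA fell by 0.26, and the difference was −0.29 (edgeR adjusted p = 0.0103). All 9 lost their call without WT untreated replicate 1 (adjusted p = 0.0602 to 0.251) and without OVA untreated replicate 2 (0.0508 to 0.225), and they were called in 1 to 8 of the 10 fits without 1 library. Septin11 and Eng were also lost with DESeq2-type size factors (0.0541 and 0.0577) and with a stricter filter on low counts (0.0542 and 0.0600). The called entry ENSMUSG00000129652 had no counts in either untreated OVA library and 2.07 to 6.69 CPM in the other 8. H2ac19, a histone gene, had no counts in the 3 treated WT libraries and 0.44 to 1.62 CPM in the other 7. No fold was given for either.

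**Figure D4:**
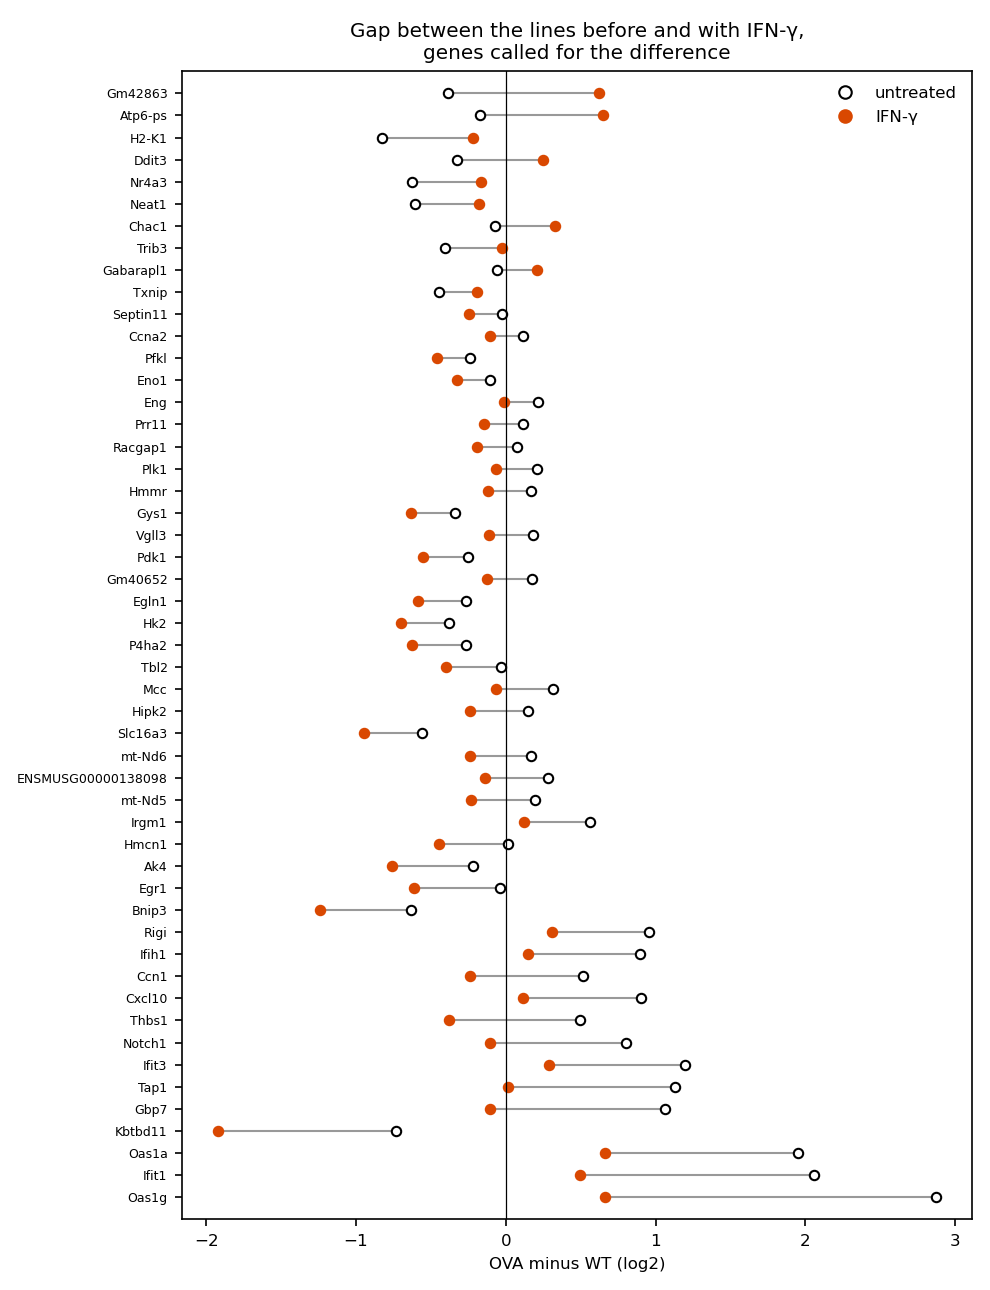
Each row is 1 sized gene called for the difference, ordered by its size, with the gap between the lines (OVA minus WT, log2) before treatment (open) and with IFN-γ (filled). Oas1g, Ifit1 and Oas1a at the bottom of the plot move from a large positive gap toward 0, while Kbtbd11, Bnip3, Slc16a3 and the other hypoxia and glycolysis genes start below 0 and move further below it.

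The other lists gave no call for the difference in the edgeR fit of all libraries (0.341% of all tested genes were called). These were checkpoint and T cell ligands (17 tested, median 0.038), cell death (24, −0.040), complement (10, −0.14), cholesterol synthesis (23, 0.030), p53 targets (21, −0.021), melanocyte differentiation (22, −0.020), dedifferentiation (12, 0.0049), integrins and adhesion (19, −0.0064) and cytosolic ribosomal proteins (64, 0.035). Of the p53 targets, 14 were higher in OVA before treatment (2.98% of all tested genes) and 16 with IFN-γ (6.36%) and none lower (2.55% and 7.99%), with a median gap of 0.40 untreated and 0.38 treated. Tyrp1, a melanin enzyme gene and the smallest p of the melanocyte list, differed by −0.12 (−0.19 to −0.053, edgeR adjusted p = 0.169), and was called with DESeq2 (0.0489). Lgals3, a galectin gene of the checkpoint list, differed by 0.24 (0.12 to 0.37, adjusted p = 0.130). It was called without WT IFN-γ replicate 3 (0.0312), with no filter on low counts (0.00825), with DESeq2 (0.0317) and with the replicate block.

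**Figure D5:**
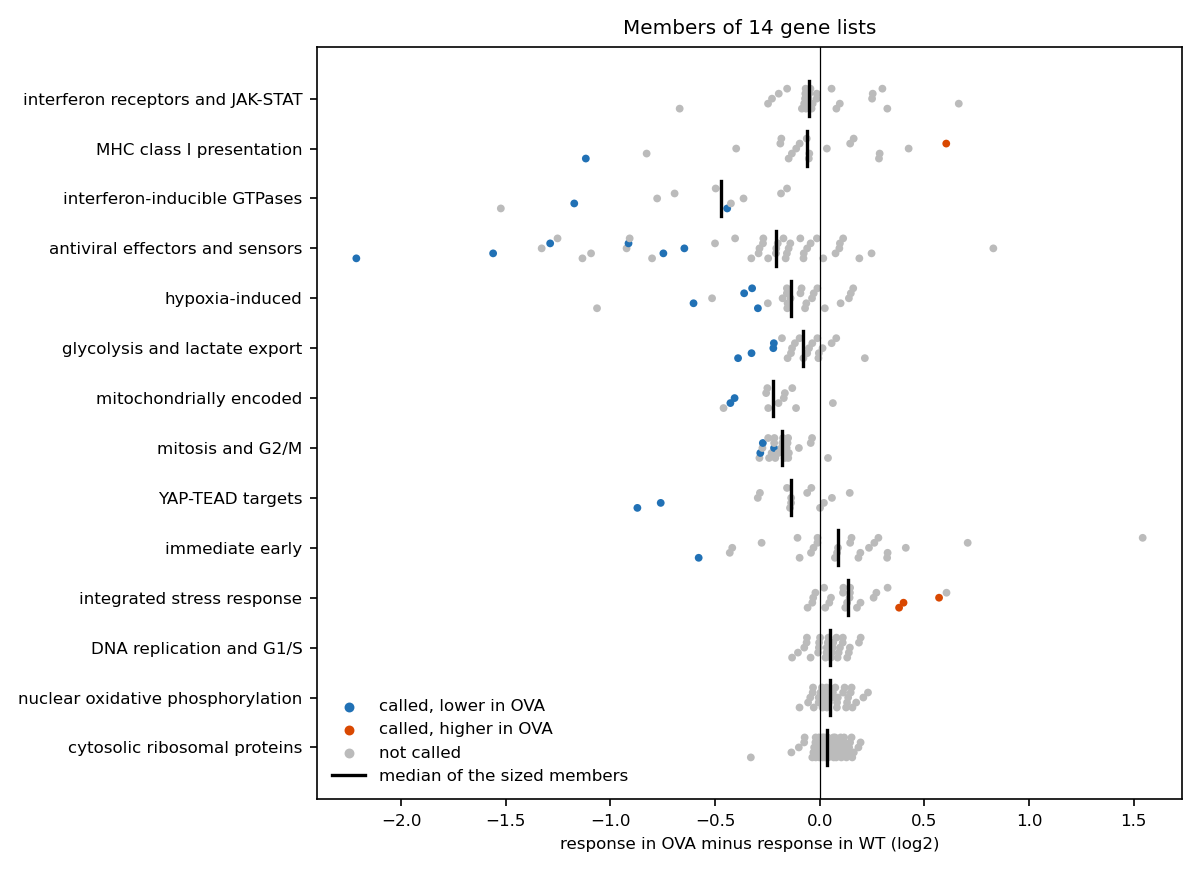
Each row is a gene list and each point a sized member, placed by its difference of responses (log2, OVA minus WT), with the list's median as a bar. Medians lie below 0 for GTPases (−0.47), mitochondrially encoded genes (−0.22), antiviral genes (−0.21), mitosis (−0.18), hypoxia (−0.14) and YAP-TEAD targets (−0.14). They also do for glycolysis (−0.078), MHC class I (−0.062) and the JAK-STAT list (−0.050). Medians are above 0 for the integrated stress response (0.14), immediate early genes (0.087), nuclear oxidative phosphorylation (0.050), G1/S (0.048) and ribosomal proteins (0.035). Called members are coloured.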

How the data were processed

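RNA of 10 cell culture libraries was sequenced in 4 groups of 2 or 3. The deposited table holds whole-number read counts per gene for 77175 entries, of which 39963 had no counts. Per the submitters' processing notes, HISAT2 2.0.5, featureCounts 1.6.0 and the build GRCm39 were used; the sources used here give neither strandedness nor the handling of multiply mapped reads. The labels' extraction protocol speaks of tissue, whereas the samples are named as cell lines. Samples were grouped by line and treatment from the labels, which name no batch.

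From the counts, edgeR 4.0.16 in R 4.3.3 was run with its filter on low counts (15526 genes kept), TMM scaling and a quasi-likelihood fit of the 4 groups. The difference, both responses and both gaps between lines are contrasts of that 1 fit, Benjamini-Hochberg adjusted over all tested genes within each contrast. CPM values use TMM factors. Log2 changes, standard errors and 95% intervals are from the fit, and genes with 3 or fewer counts summed in any group were not sized. The procedure was tested on simulated data. Alternatives were DESeq2-type size factors, no filter, a stricter filter, a replicate block, limma-voom (limma 3.58.1), DESeq2 1.42.0, leaving out each library, and 2 stricter call rules.

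Named genes were a fixed set of interferon and other genes, the 12 largest called differences in each direction with a symbol and at least 5 CPM, up to 4 called members per list, the smallest p of lists without a call, and the 10 smallest p. The remaining called genes, and Tap2, H2-Q4, Ifit2, Atf4, Ccn2, Nr4a1, Vegfa, Ndrg1, Ldha and mt-Atp6, were named after their values were seen. The comparison, the 26 gene lists and the 5 marker lists were chosen with earlier results of these data known. Promoter windows came from RefSeq (GRCm38.p6) and covered 10173 tested genes by symbol. One gene of the fixed set is not reported here.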

Additional observations from a re-analysis of the deposited data

Results flagged for a closer look

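The difference between the lines in their response to IFN-γ was tested directly as the interaction of line and treatment, and 12 genes passed as higher and 41 as lower in OVA (edgeR). The 51 sized genes are listed with their log2 difference, OVA minus WT.

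Among interferon-induced genes the values were Oas1g (−2.21), Ifit1 (−1.56), Oas1a (−1.29), Gbp7 (−1.17), Tap1 (−1.12), Ifit3 (−0.91), Cxcl10 (−0.79), Ifih1 (−0.75), Rigi (−0.65) and Irgm1 (−0.44). H2-K1 (0.60) was the only called gene of the interferon lists with a positive value. Hypoxia and glycolysis genes gave Bnip3 (−0.60), Slc16a3 (−0.39), P4ha2 (−0.36), Hk2 (−0.33), Egln1 (−0.32), Pdk1 (−0.30), Eno1 (−0.22) and Pfkl (−0.22). Mitochondrially encoded genes gave mt-Nd5 (−0.43) and mt-Nd6 (−0.41), and the pseudogene Atp6-ps gave 0.82. Integrated stress response genes gave Ddit3 (0.57), Chac1 (0.40) and Trib3 (0.38). Mitotic genes gave Hmmr (−0.28), Plk1 (−0.27) and Ccna2 (−0.22). Signalling and matrix genes of the fixed lists gave Notch1 (−0.90), Thbs1 (−0.87), Ccn1 (−0.76) and Egr1 (−0.58).

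Outside the lists, the lower values were Kbtbd11 (−1.19), Ak4 (−0.54), Hmcn1 (−0.46), ENSMUSG00000138098 (−0.43), Hipk2 (−0.39), Mcc (−0.38), Tbl2 (−0.37), Gm40652 (−0.30), Gys1 (−0.29), Vgll3 (−0.29), Prr11 (−0.26), Racgap1 (−0.26), Septin11 (−0.22) and Eng (−0.22). The higher ones were Gm42863 (1.01), Nr4a3 (0.46), Neat1 (0.43), Txnip (0.26) and Gabarapl1 (0.26). Groups of 2 or 3 libraries are too small to test single libraries as outliers.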

How the results depend on the processing

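No called gene changed direction in any alternative, and 13 of the 51 sized calls kept an adjusted p under 0.05 in every other fit that gave them one (DESeq2 gave none for 5 of the 13: Kbtbd11, Ccn1, Egr1, Ak4 and Notch1). Leaving out 1 library gave 7 to 25 higher and 14 to 82 lower calls, against 12 and 41. The counts of higher and lower calls were 79 and 205 with no filter on low counts, 22 and 81 with DESeq2, 26 and 139 with the replicate block, 6 and 15 at an adjusted p under 0.01, and 3 and 6 at 2-fold or more. The cause of these changes was not tested; the last 2 rules are stricter by construction. DESeq2-type size factors, a stricter filter and limma-voom gave 50, 54 and 51 calls, of which 49, 49 and 46 were among the 53. Lower calls made up 63.6% to 84.2% of all calls across these settings (77.4% as reported). DESeq2 gave no adjusted p for 14 of the 53, so its adjustment covered fewer genes than edgeR's and its counts of calls are not on the same set. None of the other 39 missed its threshold.

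The labels number the replicates alike but do not say that a number marks a shared culture or day. Libraries of the same number correlated at −0.0721 to 0.0349 in their deviations from the group means. This check gave no sign of pairing but could not exclude a shared culture or day. In each untreated group the deviations of the 2 libraries mirror each other, which leaves the check little to compare. The block was used only as an alternative.

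With 2 untreated libraries per line, differences of genes with low untreated counts were the least precise. Calls lost in at least 5 of the 10 fits without 1 library numbered 21 of the 51 sized ones. They included Gm42863, low in untreated cells, but also better expressed genes with small differences, such as Pdk1 (−0.30) and Plk1 (−0.27). Oas1g and Tap1, with low untreated counts, were lost in 1 and 3 of these fits.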
